A study of Mus musculus with 4 samples.

Results

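The Hox genes encode homeodomain transcription factors that lie in 4 clusters, Hoxa, Hoxb, Hoxc and Hoxd. Within a cluster the genes are numbered by paralogue group, from the anterior end (group 1) to the posterior end (group 13), and in the embryo their order follows the order in which they are used along the body and limb axis. Connective tissue cells keep much of the Hox pattern of their site of origin into adult life, which is why the pattern is often called a positional code. It was described here in stromal cells of the axillary lymph node, which drains the forelimb and flank. The members were the probe sets with 1 gene symbol whose symbol is Hoxa, Hoxb, Hoxc or Hoxd followed by a number. They numbered 48 probe sets of 33 genes, out of 18193 genes on the array and out of 39 Hox genes in the RefSeq mouse annotation. Where a gene had several, the one brightest on average over the 4 arrays stood for it. Hoxb8 and Hoxd4 share their probe sets with a neighbouring Hox gene, and the other Hox genes were not analysed here.

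The cells came from female SCID/NOD mice, 6 to 8 weeks of age, a strain that lacks functional T and B lymphocytes. In the metastatic group the flank tumours were grown from 293-VEGF-D cells, a human embryonic kidney line that overexpresses the lymphatic growth factor VEGF-D. In the non-metastatic group they were grown from 293-Apex cells. Left axillary nodes were taken after 3 to 4 weeks, at 1600 to 2500 mm3 of tumour, and nodes of 1 to 5 mice were pooled per preparation. After digestion and a short culture in endothelial growth medium, cells carrying podoplanin were selected with magnetic beads. Each group had 2 biological replicates with 1 array each, so p-values rest on 4 arrays and the number of arrays limits the precision. The tumour line, and with it the overexpression of VEGF-D, differed between the groups on every array. Nodes of the metastatic group were used only if visibly enlarged. The sorting label records depletion of tumour cells and leukocytes for that group alone. None of these features, VEGF-D included, can be told apart from metastasis.

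Values are log2 signals per probe set after quantile normalization of the 4 arrays, whose deposited medians were 5.88 to 6.00. The labelled endothelial identity was checked against its markers. Prox1, the transcription factor of lymphatic endothelium, had 4.12, 3.74, 4.17 and 3.96 on metastatic replicates 1 and 2 and non-metastatic replicates 1 and 2, and Pecam1 and Cdh5 of endothelial junctions also lay under the median of all probe sets (5.95) in their mean. Of the lymphatic markers 1 of 6 was bright, Pdpn, and of the blood endothelial markers 0 of 8, while 7 of 8 fibroblast markers were, among them Col1a1 with 13.60 to 13.91 and Pdgfrb with 12.13 to 12.38. The mean log2 signal of the fibroblast markers was 11.5 to 11.7 on the metastatic and on the non-metastatic arrays. That of the 6 smooth muscle markers was 8.14 and 8.65 against 8.83 and 9.02, and that of the 8 blood endothelial markers 5.88 and 5.53 against 6.28 and 5.99. Of 7 leukocyte markers 4 were dim, among them the pan-leukocyte gene Ptprc (4.01 to 4.28), 2 were intermediate, and Csf1r, the macrophage growth factor receptor, was bright, with 9.61 and 9.26 against 9.88 and 10.07. Single endothelial markers differed more than the lists: Emcn had 6.50 and 5.66 against 8.77 and 8.45 (5.76-fold lower in the metastatic group, limma adjusted p = 0.185), and Lyve1 had 6.32 and 4.23 against 8.26 and 7.80 (6.77-fold lower, limma adjusted p = 0.498). Other endothelial markers went the other way. Of the 8 blood endothelial markers 4 were higher and 4 lower in the metastatic group. Of the 6 lymphatic ones 2 were higher and 4 lower. Pdpn, the gene of podoplanin, was higher in the metastatic group, with 10.89 and 10.83 against 10.35 and 10.35 (limma adjusted p = 0.424). The part of these shifts in the Hox values was not tested. In such a mixed preparation fewer cells of a type and less RNA per cell cannot be told apart.

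Most Hox genes of groups 4 to 8 (9 of 12) were bright or intermediate in these cells, and most of groups 9 to 13 (11 of 14) were dim. A gene was called bright where its mean signal lay above the upper quartile of all 45037 probe sets (8.18), dim where it lay under their median (5.95), and intermediate between. By this measure 5 Hox genes were bright, 10 intermediate and 18 dim. Over all 18193 genes 37.9% were bright, 27.7% intermediate and 34.5% dim. Of groups 4 to 8, 3 of 12 genes were dim, which is not far from the share over all genes. A probe set's signal also carries the affinity of its probes, and no detection calls were used. The classes therefore place each gene against the whole array and do not rank Hox genes against one another. They do not show that a dim gene was absent or that an intermediate one was expressed. The T cell gene Cd3e, for example, was intermediate, with a mean of 7.25.

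**Figure D1:**
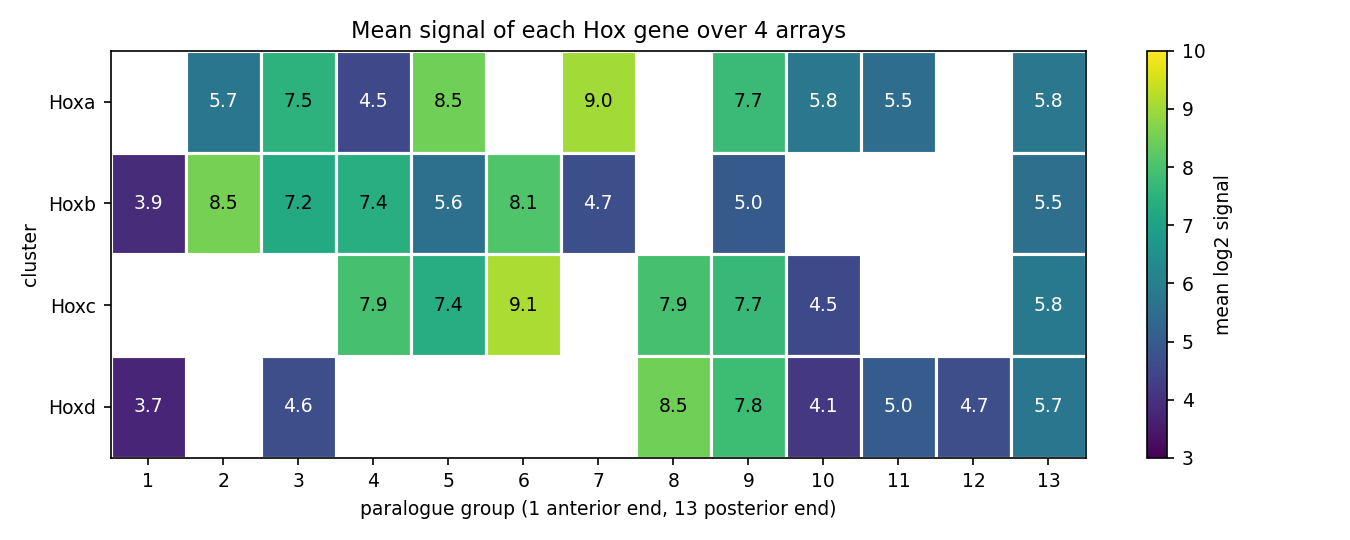
Mean log2 signal over 4 arrays of 33 Hox genes, with the cluster on the vertical axis, the paralogue group on the horizontal axis and the mean printed in each square. White squares are positions with no Hox gene or with one not analysed here, and all 10 squares of groups 10 to 13 lie between 4.13 and 5.84.

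The bright genes were Hoxa5, Hoxa7, Hoxb2, Hoxc6 and Hoxd8, so each cluster held at least 1. Hoxa5, which patterns the neck and upper thorax in the embryo, had 8.18 and 8.44 on the metastatic arrays and 8.76 and 8.52 on the non-metastatic ones. Hoxa7 had 9.22 and 8.97 against 8.91 and 8.98. Hoxb2, a gene with a part in hindbrain patterning, had 8.42 and 8.60 against 8.60 and 8.57. For Hoxa7 and Hoxb2 the groups overlapped, whereas for Hoxa5 both metastatic arrays lay under both non-metastatic ones. Hoxc6, a gene of the thoracic region, had 9.17 and 9.17 against 9.21 and 8.90, and Hoxd8 had 8.36 and 8.49 against 8.58 and 8.46. Both overlapped between the groups, and Hoxd8, Hoxc6, Hoxb2 and Hoxa7 were above the upper quartile of every array taken alone. Hoxa5 was not, as its value on metastatic replicate 1 lay just under it. Just under the limit stood Hoxb6, with a mean of 8.07.

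Among the paralogue groups, 9 of the 12 genes of groups 4 to 8 were bright or intermediate. So were 3 of the 7 genes of groups 1 to 3, namely Hoxb2, Hoxa3 and Hoxb3, and 3 of the 4 genes of group 9, namely Hoxa9, Hoxc9 and Hoxd9. All 10 genes measured in groups 10 to 13, which pattern the lumbosacral body and the limb, were dim. Their single values ran from 4.05 to 6.20. The change from intermediate to dim lay between groups 9 and 10 in Hoxa, Hoxc and Hoxd. In Hoxa the mean was 7.74 for Hoxa9 and 5.79 for Hoxa10. In Hoxc it was 7.68 for Hoxc9 and 4.53 for Hoxc10, and in Hoxd it was 7.80 for Hoxd9 and 4.13 for Hoxd10. These pairs were read by different probe sets, so only the step from one class to the next is described and not its size.

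The Hoxb cluster departed from this order. Hoxb2, Hoxb3, Hoxb4 and Hoxb6 were bright or intermediate, while Hoxb5, which lies between Hoxb4 and Hoxb6, was dim, with 5.66 and 5.58 against 5.45 and 5.57. Hoxb7 had 4.59 and 4.70 against 4.62 and 4.82, and Hoxb9 had 4.83 and 5.17 against 4.84 and 4.99. The probe set that binds both Hoxb8 and Hoxb7 was dim as well, with 5.76 and 5.81 against 5.91 and 5.81. With Hoxb13, every Hoxb probe set from Hoxb7 to the posterior end was thus dim, whereas Hoxa9, Hoxc9 and Hoxd9 of the other clusters were intermediate. At the anterior end Hoxb1 and Hoxd1 were dim on every array, from 3.72 to 4.01 and from 3.62 to 3.94. Hoxa4 (mean 4.52) and Hoxd3 (4.65) were dim too, although Hoxa3 and Hoxb3 (7.50 and 7.25) and Hoxb4 and Hoxc4 (7.39 and 7.93) were intermediate.

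**Figure D2:**
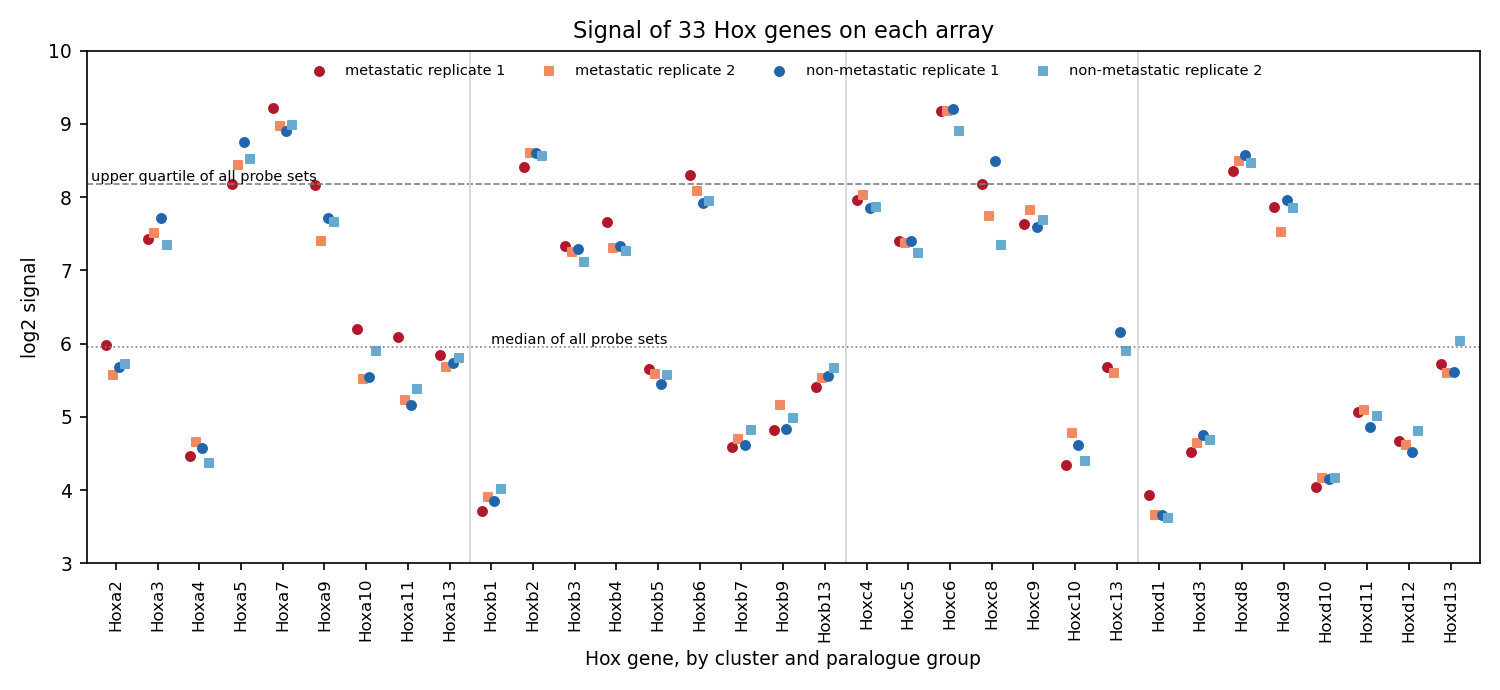
Log2 signal of 33 Hox genes on each of the 4 arrays, ordered by cluster and paralogue group, with 1 point per array and lines at the median (5.95) and the upper quartile (8.18) of all probe sets. The 4 points of a gene mostly lie close together, and only in Hoxc8, Hoxa11, Hoxa9 and Hoxa10 do replicates of a group differ by more than 0.5 log2 units.

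Other probe sets of the same genes did not always fall in the same class. Of the 11 genes with several probe sets, 7 kept 1 class and 4 did not. The probe sets of Hoxa3 had means of 4.25 to 7.50, those of Hoxc6 7.88 to 9.11, those of Hoxa5 8.17 to 8.48 and those of Hoxd8 8.17 to 8.47. For Hoxa5 and Hoxd8 the dimmer probe set lay just under the limit of the bright class, while for Hoxa3 the range crossed the median of all probe sets. The array's naming marks the probe sets chosen for Hoxa10, Hoxb6 and Hoxc6 as able to bind several transcripts. The 5 bright genes stayed the same 5, and the 18 dim genes stayed dim, in the deposited values, after centring of the array medians, with probe sets averaged per gene and without each array in turn. Averaging moved Hoxa3 to the dim ones.

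Promoters were looked at for the sequence features that the signal classes do or do not share. RefSeq promoters (build GRCm38.p6, 250 bases before to 50 after a start) were matched by symbol for 19 of the 33 genes, with 21 promoters. Hox clusters are known for dense CpG islands, on which Polycomb complexes settle when the genes are silent. The 2 bright and 2 dim promoters below were chosen, after their counts were seen, to show the range of CG dinucleotides in each class, with each CG in capitals. The bright ones are Hoxa5 (chr6:52204538-52204837, minus strand, 29 CG) and Hoxd8 (chr2:74704365-74704664, plus strand, 6 CG). The dim ones are Hoxa13 (chr6:52260831-52261130, minus strand, 45 CG) and 1 of 2 promoters of Hoxd11 (chr2:74679308-74679607, plus strand, 4 CG).
Hoxa5: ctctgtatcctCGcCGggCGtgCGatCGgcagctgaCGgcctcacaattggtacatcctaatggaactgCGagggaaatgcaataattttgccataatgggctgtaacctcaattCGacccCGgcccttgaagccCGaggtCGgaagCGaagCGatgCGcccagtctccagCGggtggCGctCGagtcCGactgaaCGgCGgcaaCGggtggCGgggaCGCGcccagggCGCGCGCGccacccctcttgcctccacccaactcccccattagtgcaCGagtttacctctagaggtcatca
Hoxd8: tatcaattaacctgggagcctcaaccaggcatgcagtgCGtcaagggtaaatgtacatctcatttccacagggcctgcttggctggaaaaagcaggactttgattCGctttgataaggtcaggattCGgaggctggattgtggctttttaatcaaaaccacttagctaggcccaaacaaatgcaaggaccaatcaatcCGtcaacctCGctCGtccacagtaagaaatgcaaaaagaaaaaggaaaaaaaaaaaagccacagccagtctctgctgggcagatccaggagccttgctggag
Hoxa13: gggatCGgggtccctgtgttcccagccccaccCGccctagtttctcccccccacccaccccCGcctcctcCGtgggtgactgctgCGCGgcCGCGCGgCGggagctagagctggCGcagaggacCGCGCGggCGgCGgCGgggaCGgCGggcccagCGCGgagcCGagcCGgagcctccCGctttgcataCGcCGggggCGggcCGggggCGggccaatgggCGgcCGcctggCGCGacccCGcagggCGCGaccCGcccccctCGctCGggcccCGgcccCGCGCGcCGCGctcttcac
Hoxd11: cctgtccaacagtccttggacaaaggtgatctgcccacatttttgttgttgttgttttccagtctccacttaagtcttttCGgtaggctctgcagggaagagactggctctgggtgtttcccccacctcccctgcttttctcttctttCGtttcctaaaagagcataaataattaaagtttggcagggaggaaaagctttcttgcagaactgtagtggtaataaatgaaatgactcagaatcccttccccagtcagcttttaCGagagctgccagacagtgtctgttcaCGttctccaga

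The bright promoters held 6 to 29 CG dinucleotides (median 9, 3 promoters), the intermediate ones 4 to 20 (median 14, 5 promoters) and the dim ones 4 to 45 (median 20, 13 promoters). The ranges overlapped throughout, and the median over all 32841 promoters of the same length was 7. The letters TGATNNAT, a site that Hox and Pbx proteins bind together, were searched on both strands, with overlapping matches counted. They were found in 3 of the 21 Hox promoters (14.3%) and in 8.85% of all promoters. All 3 belonged to dim genes, Hoxa2, Hoxb1 and the other promoter of Hoxd11, but so did 13 of the 21 promoters searched. A link between the site and the signal was not tested. The promoter of Hoxb1 (chr11:96365508-96365807, plus strand) is shown because Hoxb1 is a classical example of a gene that is bound by its own protein together with Pbx, with the match in capitals.
Hoxb1: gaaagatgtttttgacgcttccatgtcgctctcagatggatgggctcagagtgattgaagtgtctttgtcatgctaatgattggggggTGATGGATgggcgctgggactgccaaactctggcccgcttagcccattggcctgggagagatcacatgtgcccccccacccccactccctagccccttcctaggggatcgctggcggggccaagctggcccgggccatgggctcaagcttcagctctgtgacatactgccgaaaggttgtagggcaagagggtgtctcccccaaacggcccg

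The comparison of the groups asks whether the positional code differed between the cells of the metastatic and the non-metastatic group. Hox signals differed little: every difference lay between -0.39 and 0.39 on the log2 scale. Of the 33 genes 19 were higher in the metastatic group and 14 lower, with a median difference of 0.08, against 49.9% higher and a median of -0.00034 over all 18193 genes. These counts include the 18 dim genes. Of the 15 that were not dim 10 were higher and 5 lower, with a median of 0.085 and differences of -0.33 to 0.26. The Hox median was -0.019 when metastatic replicate 1 was left out. In size the median difference was 0.106 for Hox genes and 0.101 for all genes. Differences larger than the largest of a Hox gene were seen for 6.85% of all genes. No Hox gene passed limma with Benjamini-Hochberg adjustment at 0.05, as was the case for all genes (0% called), and the smallest adjusted p of a Hox gene was 0.733.

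At an unadjusted p under 0.05 there was 1 Hox gene, Hoxc13, lower in the metastatic group, against 6.7% of all genes (4.07% lower and 2.63% higher). Hoxc13, known for its part in hair and nail formation, had 5.69 and 5.60 on the metastatic arrays and 6.16 and 5.90 on the non-metastatic ones. The difference was -0.39 (SE 0.13, limma adjusted p = 0.733), or 1.31-fold lower signal. The groups did not overlap, but its mean of 5.84 lay under the median of all probe sets. Which gene passed depended on the arrays. A fit without 1 of them leaves 1 array in a group, so the genes that passed in such fits are not listed. The difference of Hoxc13 was -0.52 to -0.26 when each array was left out in turn.

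The 95% intervals of limma lay within 1 log2 unit on either side of 0 for 32 of the 33 genes. They lay within 0.5 log2 units for 23. Hoxa11 had the highest upper bound, 1.09, and Hoxc8 the lowest lower bound, -0.90. A missed threshold does not show that the levels were alike.

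**Figure D3:**
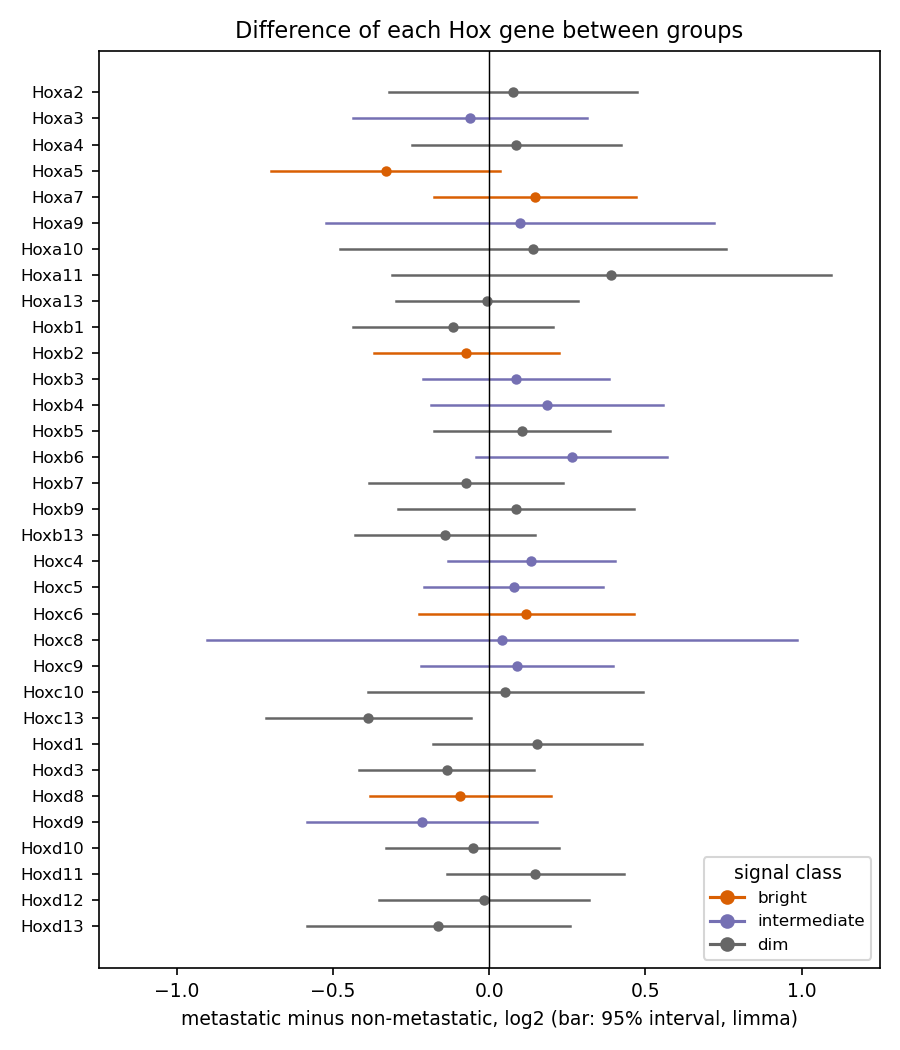
Difference of each of 33 Hox genes, metastatic minus non-metastatic, on the log2 scale (points) with its 95% interval from limma (bars), coloured by signal class. The interval of Hoxc13 is the only one that leaves out 0, and those of Hoxc8 and Hoxa11 are the widest.

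Both arrays of a group lay on the same side of both arrays of the other for 8 Hox genes, 4 higher and 4 lower in the metastatic group. Over all genes the share was 34.6% (17.2% higher and 17.3% lower), and the count of Hox genes was not above it. With so few arrays, exact permutation (two-sided) reaches 0.33 at the lowest. The difference was larger than the gap between the replicates in both groups for 7 of the 33 Hox genes and for 22.6% of all genes.

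Those lower in the metastatic group were Hoxc13, Hoxa5, Hoxb13 and Hoxd3. Hoxa5 differed by -0.33 (SE 0.15, limma adjusted p = 0.857), with group means of 8.31 ± 0.18 and 8.64 ± 0.17 (SD, n = 2 each). It was the bright member with the largest difference, and its other probe set stood at -0.17. Hoxb13, a gene of the tail end of the axis, had 5.41 and 5.53 against 5.55 and 5.67, a difference of -0.14 (SE 0.12). Hoxd3 had 4.52 and 4.64 against 4.75 and 4.69, also a difference of -0.14 (SE 0.11). Both were dim and their nearest arrays lay less than 0.1 log2 units apart.

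Those higher were Hoxb6, Hoxd11, Hoxc4 and Hoxb5. Hoxb6 had 8.31 and 8.09 against 7.92 and 7.94, a difference of 0.26 (SE 0.12, limma adjusted p = 0.87). The intermediate gene Hoxc4 had 7.96 and 8.03 against 7.85 and 7.87, a difference of 0.13 (SE 0.11). The metastatic arrays were 0.22 log2 units apart for Hoxb6 and 0.07 for Hoxc4. Hoxd11, a gene of the forearm and lower back, was dim, with 5.07 and 5.10 against 4.87 and 5.01 and a difference of 0.15 (SE 0.11). Hoxb5 had a difference of 0.11 (SE 0.11), no larger than its SE.

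By cluster, in Hoxa 6 genes were higher and 3 lower (median 0.09), in Hoxb 5 and 4 (median 0.09), in Hoxc 6 and 1 (median 0.08), and in Hoxd 2 and 6 (median -0.07). By position, groups 4 to 8 had 9 genes higher and 3 lower with a median of 0.10, groups 1 to 3 had 3 and 4 with a median of -0.06, and groups 9 to 13 had 7 and 7 with a median of 0.02. The SE of a single gene was 0.11 to 0.38, and these medians were not tested. Of the 11 genes with several probe sets, 7 had 1 direction in all of them, while Hoxa3, Hoxa4, Hoxc5 and Hoxc6 had both.

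**Figure D4:**
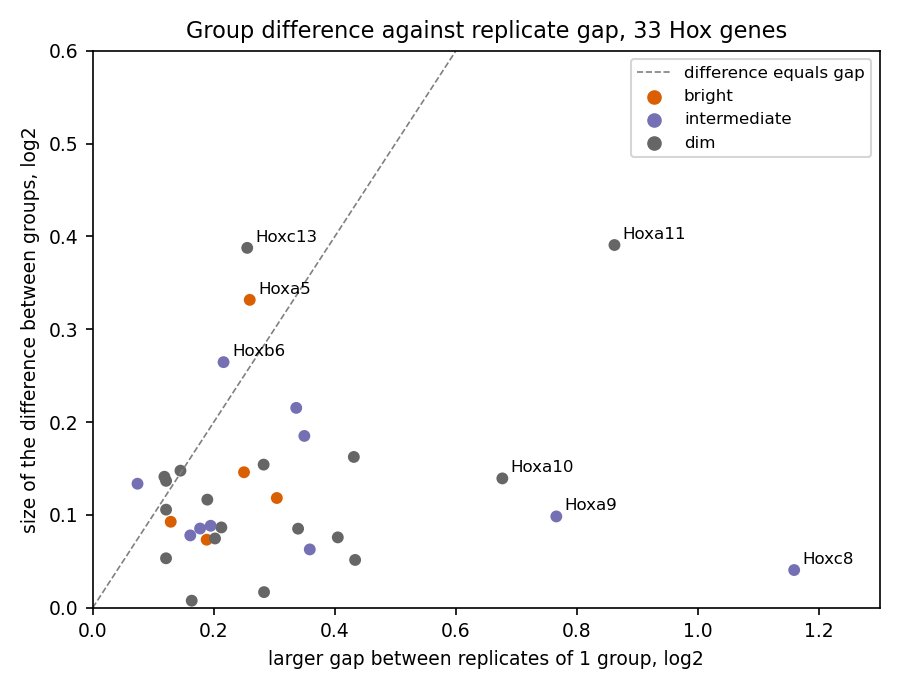
Size of the difference between groups (vertical axis, log2) against the larger of the 2 gaps between replicates of a group (horizontal axis, log2) for 33 Hox genes, coloured by signal class. Points above the dashed line, 7 of 33, differ more between groups than between replicates, and Hoxc8, Hoxa9, Hoxa10 and Hoxa11 lie far to the right of it.

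Replicates of a group differed by more than 0.5 log2 units for 4 Hox genes, and over all genes for 11.4%. The widest gap was that of Hoxc8, a gene of the thoracic region, with 8.18 and 7.74 in the metastatic group and 8.50 and 7.34 in the non-metastatic group. Its non-metastatic arrays were 1.16 log2 units apart and enclosed both metastatic ones, so the difference of 0.04 (SE 0.38) says little. The other 3 were neighbours in the Hoxa cluster. Hoxa9 had 8.17 and 7.41 against 7.72 and 7.66. Hoxa10 had 6.20 and 5.52 against 5.54 and 5.89. Hoxa11 had 6.09 and 5.23 against 5.16 and 5.38. The differences between the groups were 0.10 (SE 0.25) for Hoxa9, 0.14 (SE 0.25) for Hoxa10 and 0.39 (SE 0.28) for Hoxa11. In each of these probe sets metastatic replicate 1 was the highest of the 4 arrays. Without that array the differences turned negative, to -0.28 for Hoxa9, -0.20 for Hoxa10 and -0.04 for Hoxa11. The other probe set of Hoxa9 had 7.30 and 7.44 against 7.08 and 7.43, and that of Hoxa10 had 4.32 and 4.08 against 4.32 and 3.96. Metastatic replicate 1 was the highest in neither, so the pattern rests on 1 probe set per gene. Hoxa13, at the end of the same cluster, had 5.84 and 5.68 against 5.73 and 5.80. Its arrays spanned 0.16 log2 units. Hoxc10 had 4.34 and 4.78 against 4.61 and 4.40. Its larger gap, 0.43 log2 units, was between the metastatic arrays, and its difference was 0.05 (SE 0.18).

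Over all members metastatic replicate 1 was an extreme array most often: it was the highest for 12 of the 33 genes and the lowest for 10. The other arrays were the highest for 6 to 8 and the lowest for 7 or 8. The same count was not made over all genes. The median gap between replicates was 0.188 in the metastatic and 0.145 in the non-metastatic group for Hox genes. Over all genes it was 0.175 and 0.109, so the metastatic replicates lay further apart there too.

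Antisense transcripts of the clusters are not Hox genes by the rule, and are named here after their values were seen. Hoxd3os1, a long noncoding RNA transcribed from the strand opposite to Hoxd3, had 5.11 and 5.31 in the metastatic group and 5.90 and 5.91 in the non-metastatic group. Its difference of -0.69 (SE 0.12, limma adjusted p = 0.362) was larger than that of any Hox gene, and the groups did not overlap. Its other probe set differed by -0.18 (SE 0.12), their mean by -0.43, and both were dim. The probe sets that bind Hoxd4 and Hoxd3 together differed by -0.03 (SE 0.12) and -0.20 (SE 0.11). Hoxb5os differed by 0.15 (SE 0.14), and Hoxa11os by -0.02 and -0.11 in its 2 probe sets.

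Genes just outside the clusters were looked at as neighbours that are not Hox genes. Of the 3 nearest named protein-coding genes on each side of each cluster, 23 of 24 were measured, and 13 were bright (37.9% of all genes were), 7 intermediate and 3 dim. None passed after adjustment in limma, and 1 of 23, Calcoco1, had an unadjusted p under 0.05, against 6.7% of all genes. Skap2, just outside the Hoxa cluster, had 10.40 and 10.36 against 10.32 and 10.28. Evx1 and Evx2, homeobox genes that adjoin Hoxa13 and Hoxd13, were intermediate and differed by -0.12 (SE 0.13) and -0.09 (SE 0.12).

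Hox proteins bind DNA together with TALE homeodomain partners, chiefly of the Pbx, Meis and Pknox families. Of 9 TALE genes measured, which include Tgif1, a repressor outside these families, 7 were higher and 2 lower in the metastatic group, with a median of 0.12. Meis1, a partner of many Hox proteins, had 7.34 and 7.47 against 6.88 and 6.79. The groups did not overlap, and the difference was 0.57 (SE 0.12, limma adjusted p = 0.415), or 1.48-fold higher signal. With its probe sets averaged the difference was 0.35. None of the 9 passed the adjusted threshold and Meis1 alone had an unadjusted p under 0.05, against 6.7% of all genes. Meis2 and Tgif1 were bright and overlapped between the groups, with differences of 0.19 (SE 0.18) and 0.48 (SE 0.24), and Pbx4 was dim with 0.12 (SE 0.13). The direction of Meis2 turned to -0.19 with a probe set that is not named for several transcripts.

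Polycomb complexes keep silent Hox genes silent, and the trithorax group, with the methyltransferase Kmt2a, keeps active ones active. Of 16 Polycomb genes measured, 9 were bright and 1 dim, and all but 1 of the 10 trithorax genes were bright. None of either list passed, adjusted or unadjusted, where 6.7% of all genes had an unadjusted p under 0.05. Ezh2, the Polycomb methyltransferase, had 8.34 and 8.74 against 8.86 and 8.96, a difference of -0.37 (SE 0.16), and its partner Eed stood at -0.25 (SE 0.12). Eed was at -0.045 with its probe sets averaged, and Ezh2 between -0.57 and -0.17 when 1 of the metastatic arrays was left out. Jarid2, a cofactor of the same complex, and the related methyltransferase Ezh1 stood at 0.26 (SE 0.11) and 0.20 (SE 0.12), and Ezh1 at -0.20 with a probe set not named for several transcripts. In the trithorax list Ash2l had 0.18 (SE 0.11), Rbbp5 0.20 (SE 0.13), Kmt2b -0.14 (SE 0.11) and Kdm6a -0.16 (SE 0.17). Kdm6a turned to 0.07 with a probe set not named for several transcripts.

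Retinoic acid and Cdx proteins set Hox patterns in the embryo. Of 10 such regulators 6 were higher and 4 lower, and none passed after adjustment. At an unadjusted p under 0.05 in limma there was 1 in each direction, against 2.63% of all genes higher and 4.07% lower. Rarb, a retinoic acid receptor that is itself induced by retinoic acid, had 7.14 and 7.44 against 6.73 and 6.97, a difference of 0.44 (SE 0.15, limma adjusted p = 0.751). Cyp26b1, an enzyme that breaks retinoic acid down, had 6.37 and 6.58 against 6.96 and 6.80, a difference of -0.40 (SE 0.13, adjusted p = 0.703 by limma). Neither overlapped between the groups. Zbtb16 and Rarg stood at -0.37 (SE 0.18) and 0.14 (SE 0.16).

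Among 22 other transcription factors that pattern limb and trunk, 14 were higher and 8 lower, and none passed after adjustment. Hand2, a factor of the posterior limb bud and of heart and branchial arches, had 6.21 and 6.18 in the metastatic group and 7.58 and 9.01 in the non-metastatic group. The groups did not overlap, and the difference was -2.10 (SE 0.44, limma adjusted p = 0.426), or 4.28-fold lower signal. The non-metastatic arrays lay 1.43 log2 units apart, and the difference was -1.38 when non-metastatic replicate 2 was left out and -2.81 when replicate 1 of that group was. With its probe sets averaged the difference was -0.88, so the larger value rests on 1 probe set. Hand2 was the only one of the 22 with an unadjusted p under 0.05, against 6.7% of all genes. Tbx3 and En1 stood at 0.26 (SE 0.11) and 0.36 (SE 0.19), and Meox2 at -0.70 (SE 0.38), with 9.27 and 8.04 against 9.47 and 9.24. Meox2 stood at -0.087 without metastatic replicate 2 and at -1.31 without metastatic replicate 1, and En1 at 0.63 and 0.087 in the same order.

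Limb factors were named for their level after it was seen. The forelimb gene Tbx5 was intermediate on all 4 arrays (6.71 to 6.84), and Tbx4 and Pitx1 of the hindlimb had dim means, with single values of 5.05 to 5.33 and 5.76 to 5.99. The mean of Tbx5 (6.78) lay under that of the T cell gene Cd3e (7.25), and that of Pitx1 (5.86) just under the median of all probe sets. Their classes therefore do not show which of them was expressed. The limb mesenchyme genes Prrx1 (11.72 to 12.07) and Shox2 (9.22 to 9.29) were bright. Of 6 factors of spleen and gut mesenchyme none was bright, and Tlx1, once named Hox11 and needed for the spleen, was dim, with 5.55 and 5.58 against 5.49 and 5.62. Nkx2-5 and Nkx2-3 were intermediate and Tcf21 dim, with differences of -0.02, 0.05 and -0.12. Among 7 Hox-related genes outside the 39, Gbx2 and Gsx2 were dim, with differences of 0.09 and -0.06. None of either list had an unadjusted p under 0.05, against 6.7% of all genes.

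**Figure D5:**
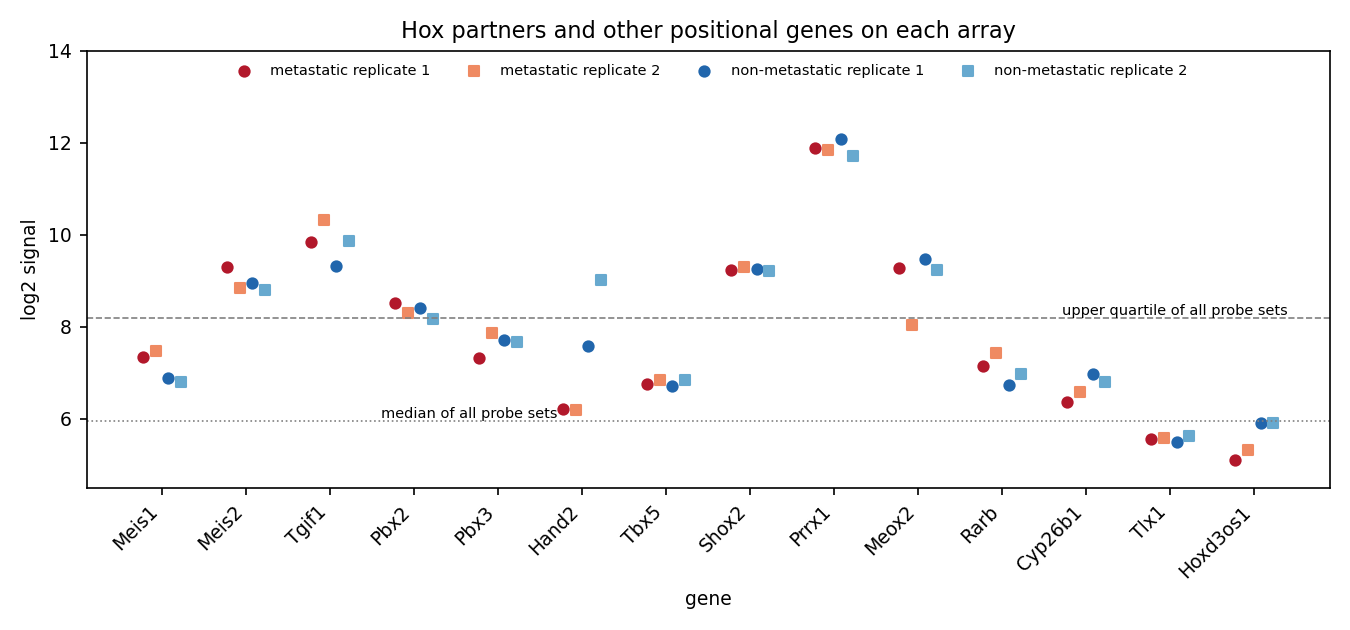
Log2 signal on each of the 4 arrays for 5 TALE genes, other positional genes, 2 genes of retinoic acid and Hoxd3os1. Lines mark the median (5.95) and the upper quartile (8.18) of all probe sets. Hand2 and Hoxd3os1 lie lower and Meis1 higher on both metastatic arrays, while Shox2, Tbx5 and Tlx1 lie close together on all 4.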

How the data were processed

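Podoplanin-selected cells of axillary nodes were measured on 4 Affymetrix arrays, 2 per group. The values deposited by the authors are on a log2 scale (3.10 to 14.87), 1 per probe set; the software that made them is not given in the sources used here. Of 45101 rows 64 controls were left out. Gene names came from the platform annotation, with 34945 probe sets of 1 symbol, 932 of several and 9160 of none. As the array medians differed by 0.116, the 4 arrays were quantile normalized. The groups were compared with limma 3.58.1 (R 4.3.3; lmFit and eBayes) on all 45037 probe sets with Benjamini-Hochberg adjustment. Replicates are labelled biological. The annotation gave the gene order around the clusters.

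Values on every array are given for bright Hox genes, for those with groups that do not overlap and for the 5 with the largest replicate gap. Up to 4 genes with the smallest p per list are named, some with values on every array and others with the difference alone. Members and lists were chosen with earlier results of these data known. Tested on simulated data of 45037 probe sets for this comparison, the fit called 21% of changes of 1 and 94% of changes of 2 log2 units. The alternatives were the deposited values, centred medians, other choices of probe set, a trended robust fit, a replicate block and leaving out each array. Figures were drawn with matplotlib 3.10.9 in Python 3.11.15.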

Additional observations from a re-analysis of the deposited data

How the results depend on the processing

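No Hox gene passed an adjusted p of 0.05 in limma under any alternative run, and the same 5 were bright with each way of normalizing or choosing probe sets. With every gene above the median counted as bright there were 15. With brighter probe sets alone, 3 of the 15 Hox genes left had groups that did not overlap. The share over all genes is not given for that setting. With all 33 Hox genes the count was 8. Without each array in turn that count was 17 to 25, since fewer arrays overlap less often, and the median difference was -0.0189 to 0.0451. With the replicate number as a block 0 Hox genes were called (smallest adjusted p 0.394) and 145 probe sets over the array. Deviations of same-numbered arrays had a correlation of 0.248 over all probe sets and -0.032 over Hox genes, but 2 pairs share only a number. Directions reversed for Tlx1 (-0.020, deposited values), Tcf21 (0.024, mean of probe sets) and, with probe sets not named for several transcripts, Meis2 (-0.19), Ezh1 (-0.20) and Kdm6a (0.068); the cause was not tested. Leaving out 1 array gave ranges that cross 0 for Hoxb2 (-0.17 to 0.021), Hoxc6 (-0.034 to 0.27), Hoxc8 (-0.54 to 0.62), Hoxa11 (-0.040 to 0.82), Hoxa9 (-0.28 to 0.48), Hoxa10 (-0.20 to 0.48), Hoxc10 (-0.17 to 0.27), Meis2 (-0.036 to 0.42), Pbx4 (-0.0029 to 0.25), Kdm6a (-0.38 to 0.055), Rarg (-0.048 to 0.32), Tcf21 (-0.25 to 0.0070), Nkx2-5 (-0.23 to 0.18), Tlx1 (-0.050 to 0.076), Evx1 (-0.25 to 0.011) and Evx2 (-0.20 to 0.012). No detection calls were used, so how far a dim probe set lies above background is not known here, and the number of arrays limits the precision.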
